A study of Mus musculus with 9 samples.

Results

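The irradiated hind limb was compared with the opposite limb of the same animal in 3 mice, 304, 305 and 306, so that each mouse served as its own reference. These 6 of the 9 libraries of the series hold total RNA of the gastrocnemius, a large muscle of the calf. The mice were of strain C57Bl6J and about 8 weeks old. The irradiated limb (RL) received 8.2 Gy in each of 3 sessions when the mice were 4 weeks old, and both limbs were taken 3 weeks after irradiation. The opposite limb (CL) was the untreated side of an animal that had been irradiated, so what both limbs share cannot appear in the difference. The 3 unirradiated mice (CTL, 0 Gy), 307, 308 and 311, took no part in the paired test and are given as levels beside the pairs. They entered the scaling of all 9 libraries and an alternative fit. Limbs were matched by the mouse number in the labels, and the contrast asks which transcripts differ in the irradiated limb itself.

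Ionising radiation breaks DNA, and p53 then switches on genes that halt the cell cycle or start repair and cell death. Satellite cells are the stem cells of muscle, lie under the sheath of each fibre and depend on the factor Pax7. Interferons are secreted signals that make cells transcribe antiviral genes, many of which carry a short promoter element, the interferon-stimulated response element, bound by factors of the IRF family.

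The 6 libraries held 37.7 to 44.6 M counts, of which mitochondrially encoded genes took 42.4% to 51.8%. All levels are CPM, read counts scaled to a common library size and corrected for library composition. Differences within a mouse are log2 RL minus log2 CL. Myh4, the myosin that marks fast skeletal muscle fibres, stood at 23872 to 33625 CPM in the 6 libraries.

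The opposite limb of mouse 304 (CL 1) stood apart from all other libraries in correlation and in several lists. Its median correlation of log2 CPM to the others was 0.970, against 0.979 to 0.987 for the rest. Chi-square per degree of freedom, a measure of how far the counts of 2 libraries in a group differ, also set other libraries apart. It was 71.3 and 59.5 from CL 1 to the other CL libraries, and 17.0 between these. RL 1 of the same mouse gave 71.2 and 62.1, against 14.7 between RL 2 and RL 3. CTL 2 gave 115 and 164, against 32.9 between CTL 1 and CTL 3. The 18 markers of lymphocytes, cells that muscle normally holds few of, summed to 30.0 CPM in CL 1 and to 0.387 to 1.96 CPM in the other 8 libraries. All 18 had a count in CL 1, and 16 were highest there. Other lists were also high in CL 1. Collagens summed to 3582 CPM, against 1596 and 2208 in the other CL libraries and 1514 to 2075 in RL. Adipocyte and lipogenesis genes summed to 1348 CPM, against 770 and 756 in the other CL libraries and 687 to 755 in RL. Myh3, the embryonic myosin of new fibres, stood at 33.0 CPM in CL 1, 1.60 and 3.44 in the other CL libraries, and 9.75, 1.52 and 1.65 in RL. What these levels contribute to the limb difference of mouse 304 was not tested, and counts of genes are therefore also given from the pairs of mice 305 and 306 alone.

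**Figure D1:**
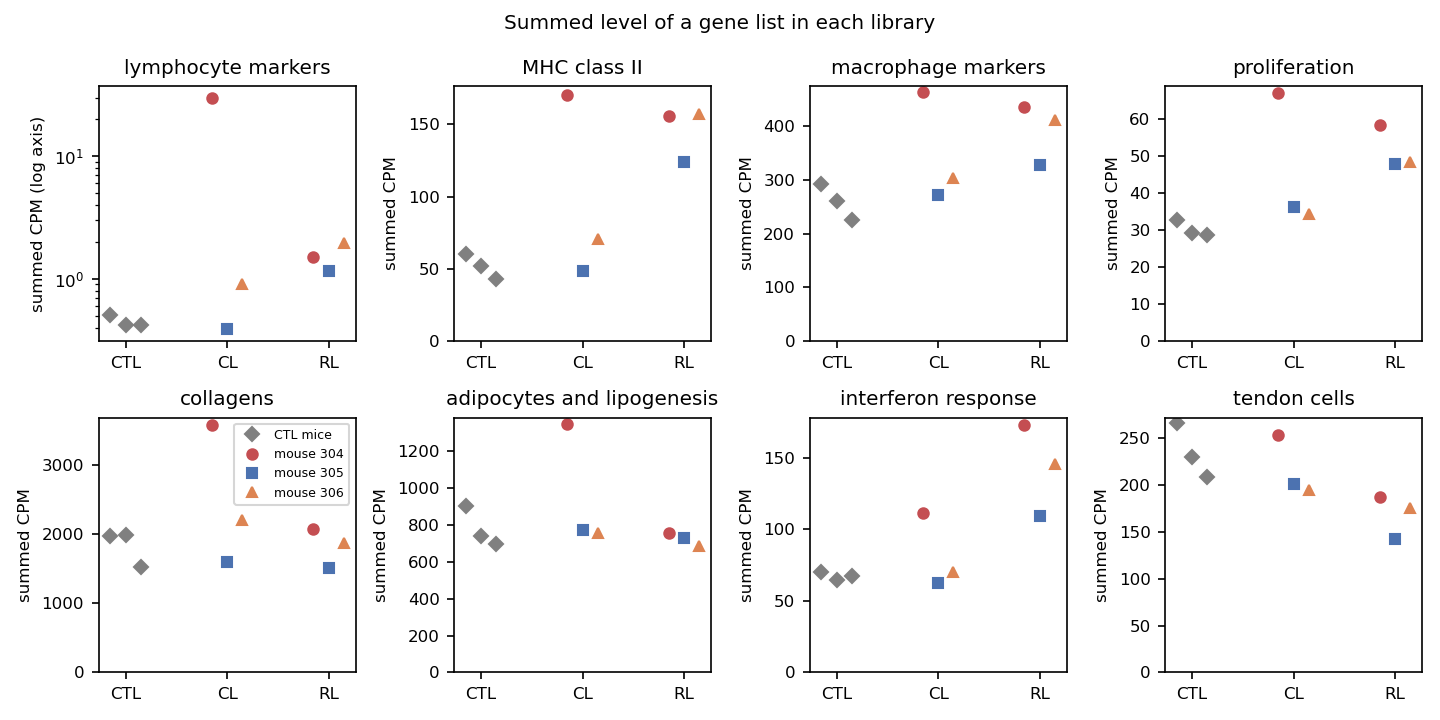
Summed CPM of 8 gene lists (vertical axis, logarithmic for lymphocyte markers only) in each library of CTL, CL and RL (horizontal axis), with colours and symbols for the mouse. CL 1, the red circle in the middle column, is at 30.0 CPM for lymphocyte markers, while no other library passes 1.96.

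Between the limbs, 71 of 14671 tested genes differed by edgeR's quasi-likelihood test with mouse as a block, at a Benjamini-Hochberg adjusted p under 0.05 with no fold limit. Of these, 56 were higher in RL (0.382% of the genes tested) and 15 were lower (0.102%), and either direction made up 0.484%. At an unadjusted p under 0.05 there were 1102 genes, 521 higher and 581 lower. DESeq2 with the same block called 49 higher (0.334%) and 12 lower (0.0818%), and 47 of these 61 were among the 71. From mice 305 and 306 alone edgeR called 743 genes (5.06%), 514 higher (3.5%) and 229 lower (1.56%), and these include all 71. Log2 fold changes of the 56 higher genes ran from 0.57 to 5.26 with a median of 1.14, and those of the 15 lower genes from -0.58 to -2.84 with a median of -1.09. The median of all tested genes was -0.0028.

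All 71 genes differed in the same direction in all 3 mice, which the test itself rewards. Over all tested genes 28.3% did so, 13.4% upwards and 14.9% downwards. For 44 of the 56 higher genes all 3 RL libraries lay above all 3 CL libraries (3.88% of all genes), and for 12 of the 15 lower genes all lay below (4.4%). The CTL mice had a mean below that of RL for 55 of the 56 higher genes, against 48.1% of all tested genes, and above it for all 15 lower genes, against 51.9%. Since the 71 genes were chosen on their RL values, these counts are a description and no separate support.

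**Figure D2:**
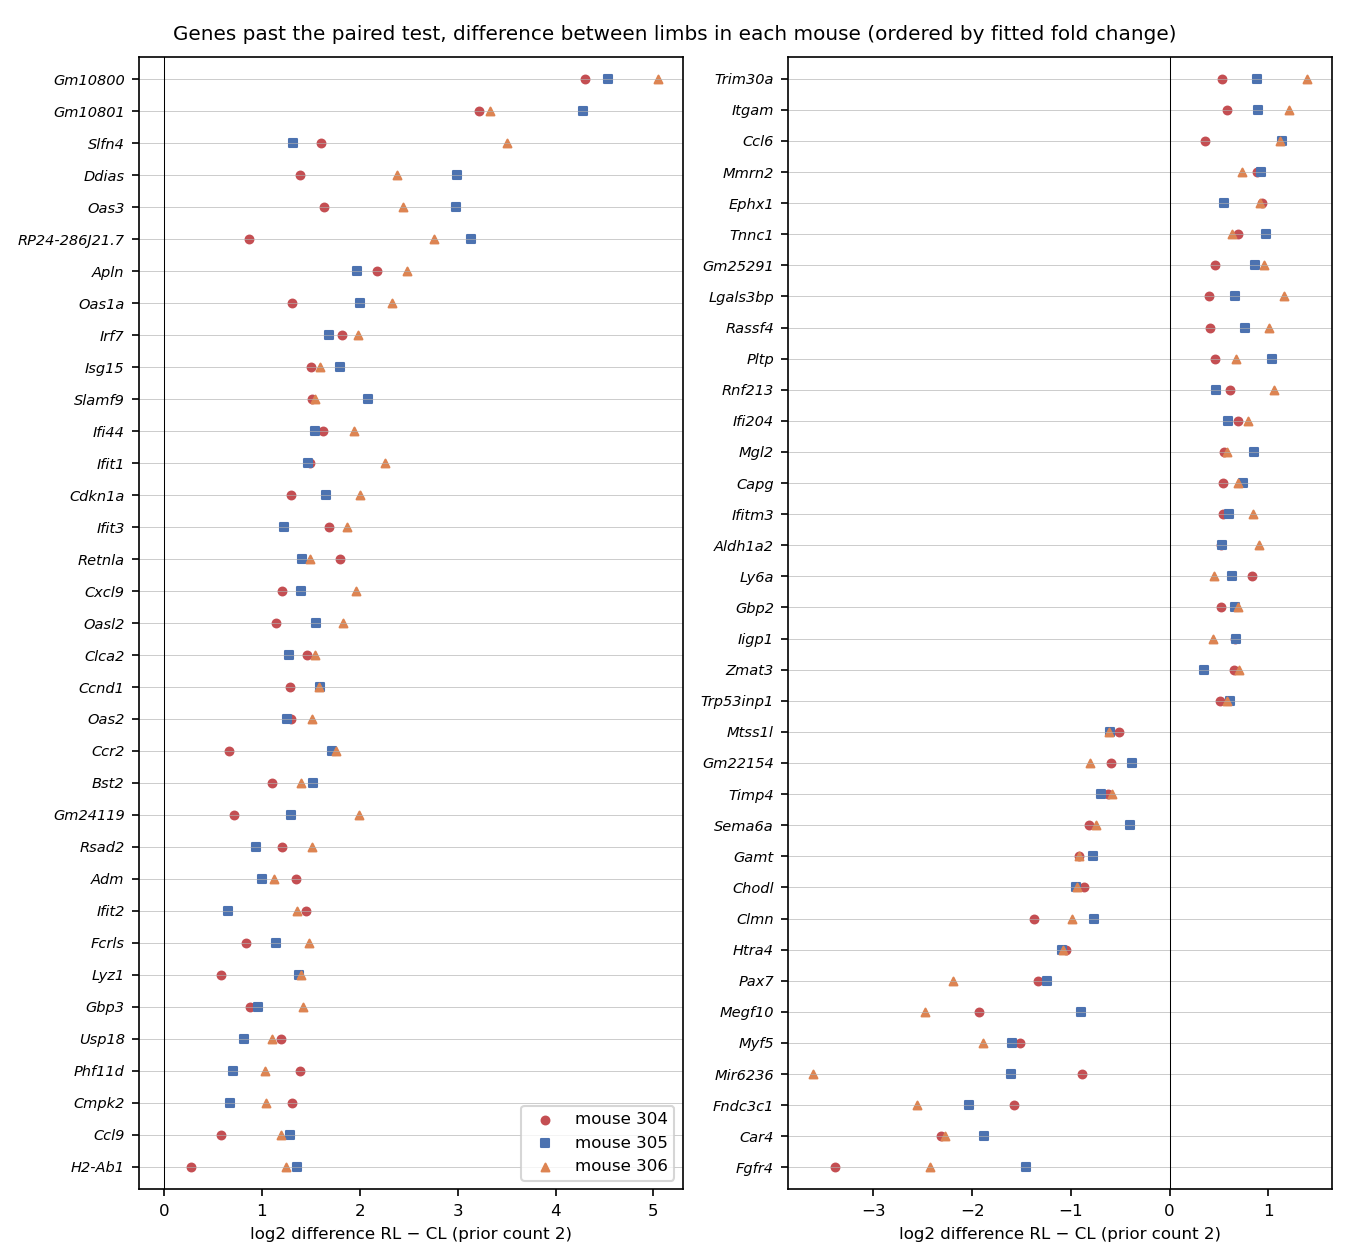
Log2 difference between limbs (horizontal axis) in each of the 3 mice for the 71 genes past the test (vertical axis), ordered by fitted fold change. All symbols of a gene lie on the same side of 0, and mouse 304 has the smallest of the 3 differences in 33 of the 56 higher genes.

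The median difference of the 56 higher genes was 0.91 in mouse 304, 1.14 in mouse 305 and 1.40 in mouse 306. For the 15 lower genes the medians were -1.05, -0.95 and -1.08. In these 15 genes the downward differences were thus about as large in mouse 304 as in the others. The test favours genes with like differences in all mice, so this likeness does not extend to other genes.

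Across genes at large, with the called ones included, the mice were less alike. The called genes had been picked by a test that rewards likeness between mice. Over the 10050 genes whose log2 CPM averaged at least 1, the differences of mice 305 and 306 had a Pearson r of 0.48 (Spearman 0.27), while mouse 304 had an r of 0.026 with mouse 305 and 0.085 with mouse 306 (Spearman 0.029 and 0.016). These are correlations across genes, which share libraries and are not independent replicates. Differences of at least 2-fold were seen for 122 genes in mouse 304, of which 103 were lower in RL. In mouse 305 they numbered 63 and in mouse 306 they numbered 82, and only 5 and 6 of those were lower in RL.

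**Figure D3:**
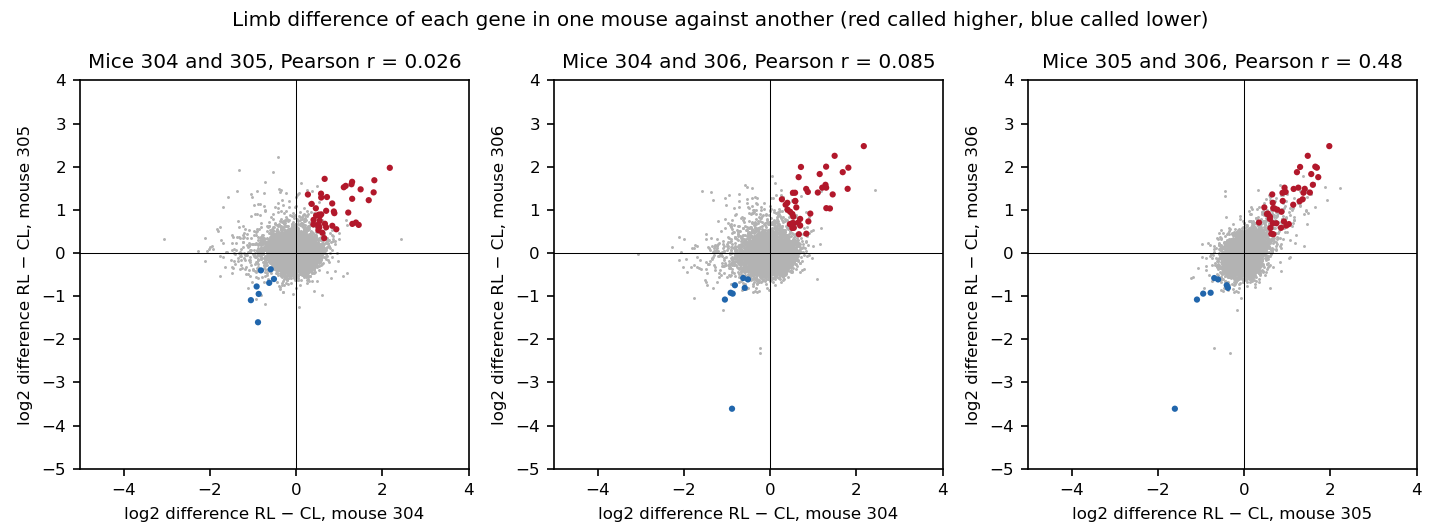
Log2 difference RL minus CL of each gene in one mouse against another, over 10050 genes (grey), with genes past the paired test in red (higher) and blue (lower). The cloud of mice 305 and 306 is drawn out along the diagonal (r = 0.48), and both clouds with mouse 304 are not (r = 0.026 and 0.085).

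Among these 10050 genes 10 were at least 2-fold higher in all 3 mice, Oasl2, Oas2, Irf7, Ifit1, Ifit3, Bst2, Ccnd1, Cdkn1a, Retnla and Apln. Of these, 6 belong to the interferon response. The serine protease gene Htra4 alone was at least 2-fold lower in all 3. In mice 305 and 306 together 38 genes were at least 2-fold higher, and 23 of these were above 0 in mouse 304.

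Genes ranked in a pair of mice were then read in the mouse left out. The ranking and the shares by sign used the 10050 genes whose log2 CPM averaged at least 1. Of the 100 genes most raised in mice 305 and 306, 58 were also above 0 in mouse 304, where 57.4% of the 10050 had that sign. Of the 100 most raised in the other pairs of mice, 95 kept the sign in mouse 305 (48.4% of the 10050) and 94 in mouse 306 (42.8%). Of the 100 most lowered, 75 kept the sign in mouse 304 (42.6%), 66 in mouse 305 (51.6%) and 78 in mouse 306 (57.2%). The calls that follow were not limited by level. Of 513 genes called higher from mice 305 and 306 alone and above 0 in both, 270 (52.6%) were above 0 in mouse 304. Their median there was 0.035. Of 229 called lower in the same way, 158 (69.0%) were below 0 in mouse 304. Counts of list members without mouse 304 stand beside the 3.5% of all genes that rose and the 1.56% that fell in that fit.

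Apln, which encodes the peptide ligand apelin made by the leading cells of growing vessels, shared the smallest adjusted p-value of the comparison with the predicted gene Gm10800. On chromosome X (48025146 to 48034853, minus strand, GRCm38), it went from 2.35 to 10.7 CPM in mouse 304, from 1.23 to 4.99 in mouse 305 and from 1.71 to 9.75 in mouse 306. Every RL library lay above every CL library and above the CTL range of 1.16 to 1.61 CPM. The log2 fold change was 2.25 ± 0.14 (SE, edgeR adjusted p = 5.1e-05).

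Adm, which encodes the vasodilator peptide adrenomedullin, was the other gene of the 16 tested vessel sprouting genes to rise, from 0.741, 0.918 and 1.09 CPM to 1.97, 1.88 and 2.45. All RL libraries were above all CL libraries, with a log2 fold change of 1.20 ± 0.21 (SE, edgeR adjusted p = 0.0378). The Adm call was lost with DESeq2 (adjusted p = 0.146) and without mouse 305 (edgeR adjusted p = 0.164). Of all tested genes 0.382% rose. No sprouting gene fell, and the list median was 0.17. Without mouse 304 there were 6 that rose and 0 that fell, where 3.5% of all genes rose.

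Markers of the endothelium itself did not move together. Of 24 tested, 12 had a positive and 12 a negative fold change, with a median of -0.0031. The single call was Car4, a membrane-bound carbonic anhydrase of capillaries, where 0.102% of all tested genes fell. Car4 went from 1.09, 0.677 and 1.01 CPM in CL to 0.179, 0.147 and 0.170 in RL. The limbs did not overlap and the fall was alike in all 3 mice, at -2.32, -1.88 and -2.27. The fitted log2 fold change was -2.46 ± 0.34 (SE, edgeR adjusted p = 0.0122), from 6 to 7 counts per RL library and 28 to 53 per CL library. CTL mice had 0.629 to 1.07 CPM. In these bulk samples a change in the number of cells of a type and in the RNA per cell cannot be told apart.

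The vessel markers nearest to the threshold went in opposite directions. Tek, the angiopoietin receptor, had differences of -0.36, -0.35 and -0.44 (edgeR adjusted p = 0.124), and Vwf, the clotting factor carrier, -0.43, -0.24 and -0.51 (edgeR adjusted p = 0.146). Pecam1, an adhesion molecule of endothelial junctions, had 0.29, 0.23 and 0.54 (edgeR adjusted p = 0.247).

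Of 28 tested targets of p53, 3 rose and 0 fell, where 0.382% of all tested genes rose. A positive fold change was seen for 26, against 49.3% of all genes, and the median was 0.36. The list medians were alike in the mice, at 0.33, 0.30 and 0.51. Cdkn1a, the gene of p21, a protein that stops the cell cycle, lies on chromosome 17 (29090976 to 29100727, plus strand). It went from 5.62 to 13.9 CPM in mouse 304, from 3.05 to 9.66 in mouse 305 and from 2.72 to 11.1 in mouse 306. The limbs did not overlap, and CTL mice lay lower than both limbs, at 1.58 to 2.17 CPM. The log2 fold change was 1.64 ± 0.14 (SE, edgeR adjusted p = 0.000357).

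Trp53inp1, a regulator of autophagy and apoptosis, went from 16.3, 16.9 and 17.4 CPM to 23.4, 25.8 and 25.9. This was the narrowest spread among the called targets, with a log2 fold change of 0.57 ± 0.09 (SE, edgeR adjusted p = 0.0213). Zmat3, an RNA-binding zinc finger protein, went from 10.4, 8.22 and 7.37 CPM to 16.3, 10.4 and 12.1, with RL 2 just above CL 1 and a log2 fold change of 0.57 ± 0.11 (SE, edgeR adjusted p = 0.0491). DESeq2 did not call Zmat3 (adjusted p = 0.0751). Without mouse 305, Trp53inp1 and Zmat3 missed the threshold (edgeR adjusted p = 0.212 and 0.108), and without mouse 304, 12 targets rose and 0 fell, where 3.5% of all genes rose.

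Of the 28 targets, 19 were above 0 in every mouse, against 13.4% of all genes. Aen, a p53-induced nuclease, had differences of 0.76, 0.31 and 0.45 (edgeR adjusted p = 0.0921). Mdm2, the ligase that degrades p53, had 0.69, 0.23 and 0.04 (edgeR adjusted p = 0.515). None of 26 tested DNA repair genes passed in either direction, with or without mouse 304, and their median was 0.013.

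Ccnd1, which encodes cyclin D1 and carries cells into the division cycle, rose together with Cdkn1a. It went from 9.30, 4.01 and 6.25 CPM to 22.7, 12.2 and 18.8, against 4.69 to 5.36 in CTL mice. The limbs did not overlap, and the log2 fold change was 1.48 ± 0.11 (SE, edgeR adjusted p = 0.000101). Ccnd1 and Cdkn1a were the only calls among 15 tested cyclins and inhibitors of cyclin-dependent kinases, where 0.382% of all tested genes rose. Without mouse 304 Ccnd2 and Cdk6, a cyclin and its partner kinase, rose as well (log2 0.85 and 0.80).

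Genes of S phase and mitosis showed the opposite order of limbs in mouse 304. The 22 tested proliferation genes had a median of -0.35 in mouse 304, 0.92 in mouse 305 and 0.79 in mouse 306, and none passed with 3 pairs. Mki67, a marker of dividing cells, went from 10.4 to 7.84 CPM in mouse 304, from 0.846 to 4.16 in mouse 305 and from 2.08 to 6.04 in mouse 306. CL 1 was the highest of the 6 libraries, the other CL libraries were the lowest, and CTL mice had 1.24 to 1.79 CPM. Its log2 fold change was 0.89 ± 0.37 with all pairs (SE, edgeR adjusted p = 0.612) and 1.84 without mouse 304 (edgeR adjusted p = 2.19e-09). Without mouse 304, 8 of the 22 rose and 1, the mitotic kinase gene Aurka, fell (log2 -0.56).

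The interferon response held the largest group of calls. Of its 30 tested members 15 rose and 0 fell, against 0.382% of all genes that rose. In every mouse 29 were above 0, against 13.4% of all genes. The list median was 1.16, and the medians in mice 304, 305 and 306 were 0.99, 1.08 and 1.38. Summed over the list, levels went from 112 to 173 CPM in mouse 304, from 62.2 to 109 in mouse 305 and from 70.2 to 146 in mouse 306, and CTL mice had 64.9 to 70.1. CL 1 was above RL 2 by this sum, so the limbs overlapped between mice and separated within each mouse. Without mouse 304, 28 of the 30 rose, where 3.5% of all genes rose.

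The promoters of these genes are shown because many hold the letters that IRF factors are known to bind. The motif GAAANNGAAA was searched on both strands in the 300 bases from 250 before to 50 after each start in RefSeq (GRCm38.p6). It was found in 8 of the 13 called interferon genes with a promoter in that table (61.5%), in 12 of 20 members of the list (60.0%) and in 391 of 10248 tested genes (3.82%). Among called genes of any kind with a promoter, 11 of 41 that rose held it (26.8%). These 11 include the 8 interferon genes, and outside that list 3 of 28 held it (10.7%). The 3 were Ifitm3 and, from the second family of interferon targets described below, Gbp2 and Gbp3. Of the called genes that fell 0 of 9 held it, which are too few to read beside a share of 3.82%. The 160 bases before the start are given below only for the interferon genes that held 2 or 3 copies there. Rsad2, Oas3 and Trim30a held 1 copy each and are not shown. Bases run 5′ to 3′ on the strand of the gene, with the motif on either strand in capitals and adjoining copies that overlap run together.
Ifit1: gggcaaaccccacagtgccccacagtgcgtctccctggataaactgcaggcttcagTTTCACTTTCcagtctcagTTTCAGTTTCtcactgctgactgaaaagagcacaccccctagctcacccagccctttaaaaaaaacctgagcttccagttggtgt
Ifit3: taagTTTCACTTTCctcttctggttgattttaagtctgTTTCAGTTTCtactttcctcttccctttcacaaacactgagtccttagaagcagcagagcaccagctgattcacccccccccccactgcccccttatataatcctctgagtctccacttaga
Bst2: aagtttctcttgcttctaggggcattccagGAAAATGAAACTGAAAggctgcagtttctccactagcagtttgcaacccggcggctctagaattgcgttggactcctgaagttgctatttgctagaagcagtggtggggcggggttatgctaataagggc
Isg15: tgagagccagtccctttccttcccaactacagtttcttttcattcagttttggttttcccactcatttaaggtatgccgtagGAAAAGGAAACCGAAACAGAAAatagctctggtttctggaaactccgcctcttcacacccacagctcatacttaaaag
Oas1a: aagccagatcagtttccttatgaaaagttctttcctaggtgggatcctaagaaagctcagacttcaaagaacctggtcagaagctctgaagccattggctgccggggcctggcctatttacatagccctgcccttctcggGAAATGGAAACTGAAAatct
They lie at chr19:34640729-34640888 (plus strand), chr19:34583369-34583528 (plus), chr8:71537473-71537632 (minus), chr4:156200819-156200978 (minus) and chr5:120907526-120907685 (minus). Ifit1 and Ifit3 hold 2 separate copies each in the TTTC form of the other strand, Bst2 and Oas1a 2 overlapping copies and Isg15 3. A match describes the letters only and does not show that a factor was bound.

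Irf7, the transcription factor that amplifies interferon production, went from 2.72 to 9.67 CPM in mouse 304, from 0.870 to 2.91 in mouse 305 and from 1.58 to 6.35 in mouse 306. RL exceeded CL in each mouse by a like step of 1.81, 1.69 and 1.98, although the levels of the mice differed about as much as the limbs did. CTL mice had 0.745 to 1.19 CPM. The log2 fold change was 1.87 ± 0.14 (SE, edgeR adjusted p = 0.000133).

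The Ifit genes encode proteins that bind foreign RNA. Ifit1 (chromosome 19, 34640871 to 34650009, plus strand) went from 2.59, 1.21 and 0.988 CPM to 7.40, 3.45 and 4.90, with no overlap and a log2 fold change of 1.74 ± 0.18 (SE, edgeR adjusted p = 0.00246). Ifit3 went from 1.77, 1.35 and 1.12 CPM to 5.79, 3.23 and 4.24, a log2 fold change of 1.63 ± 0.18 (SE, edgeR adjusted p = 0.00304). Ifit2 had its smallest step in mouse 305, 0.65 against 1.45 and 1.36, and a log2 fold change of 1.17 ± 0.17 (SE, edgeR adjusted p = 0.014). Near-identical copies exist in this family and among the Oas genes, and the counting rules are not stated, so their split between members is uncertain.

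The Oas family encodes enzymes that sense double-stranded RNA and activate an RNase, and 4 of its genes rose. Oasl2 went from 2.94, 1.02 and 1.66 CPM to 6.59, 3.08 and 6.01, with no overlap (log2 1.51 ± 0.17, SE, edgeR adjusted p = 0.0033). Oas2 went from 2.39, 0.749 and 1.5 CPM to 5.95, 1.86 and 4.36 (log2 1.39 ± 0.16, SE, edgeR adjusted p = 0.00404), and RL 2 lay below CL 1. Oas1a and Oas3 reached at most 1.81 and 1.76 CPM in RL, with log2 fold changes of 1.95 and 2.39 (edgeR adjusted p = 0.0326 for both).

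Among the effectors, Bst2, which tethers budding virus to the cell surface, went from 2.35, 1.04 and 1.58 CPM to 5.11, 3.08 and 4.24 (log2 1.35 ± 0.16, SE, edgeR adjusted p = 0.00541). Isg15, a ubiquitin-like modifier, went from 0.329, 0.218 and 0.240 CPM to 1.02, 0.881 and 0.824, 34 to 40 counts per RL library (log2 1.79 ± 0.32, SE, edgeR adjusted p = 0.0378). The limbs did not overlap for either gene. Rsad2, the antiviral enzyme viperin, rose by 1.25 with RL 2 just below CL 1 (edgeR adjusted p = 0.00847).

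The remaining calls of the list were Ifi44 (log2 1.77), Usp18, which strips Isg15 from proteins (1.08), the nucleotide kinase Cmpk2 (1.03) and the ring-finger gene Trim30a (0.93). Their edgeR adjusted p-values ran from 0.00648 to 0.0354. DESeq2 did not call Isg15, Usp18 and Cmpk2 (adjusted p = 0.255, 0.103 and 0.0814). Without mouse 305 the calls of Isg15, Oas1a, Oas3, Usp18, Cmpk2 and Trim30a were lost (edgeR adjusted p from 0.0767 to 0.214).

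A second family of interferon targets, the large GTPases that attack the membranes around microbes and the p200 sensors of DNA, had a lower median of 0.42. Of 19 tested members 4 rose and 0 fell, where 0.382% of all tested genes rose. Gbp3 went from 3.37, 2.56 and 2.32 CPM to 6.23, 5.04 and 6.28, without overlap (log2 1.09 ± 0.14, SE, edgeR adjusted p = 0.00933). The others were Ifi204 (0.70), Gbp2 (0.63) and Iigp1 (0.60), with edgeR adjusted p = 0.0226, 0.0456 and 0.0428. DESeq2 called none of these 3 (adjusted p = 0.0571, 0.223 and 0.109), and without mouse 305 their edgeR adjusted p was 0.105, 0.308 and 0.308. Without mouse 304, 9 of the 19 rose, where 3.5% of all genes rose.

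**Figure D4:**
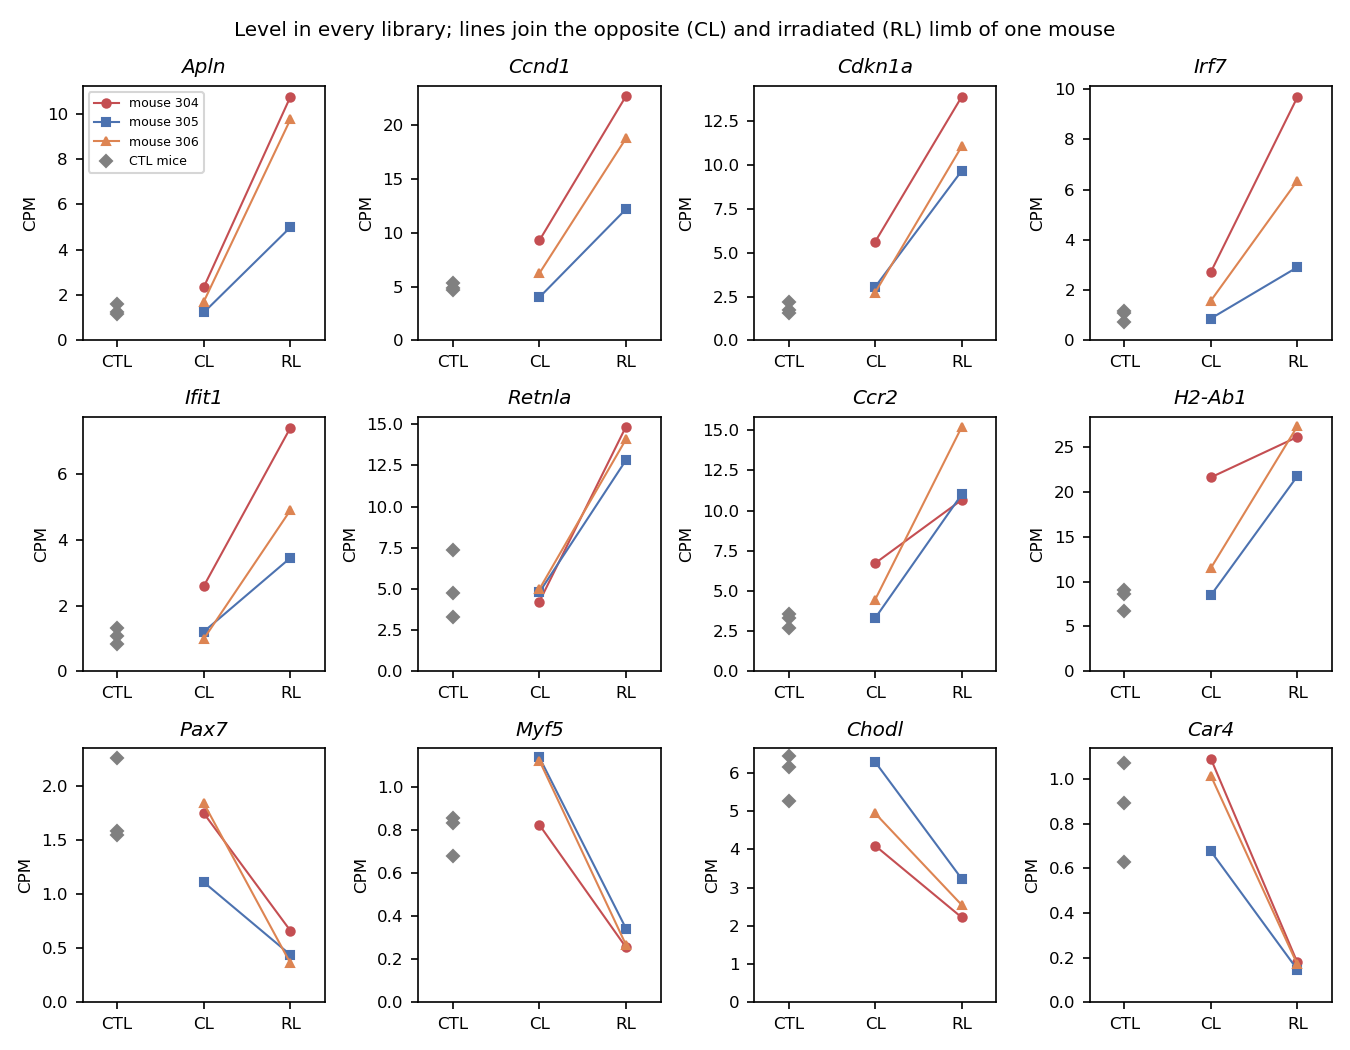
CPM (vertical axis, from 0) of 12 genes in CTL, CL and RL (horizontal axis), with lines that join the limbs of a mouse and grey diamonds for CTL mice. The lines of Apln, Ccnd1, Cdkn1a, Irf7, Ifit1 and Retnla climb in all 3 mice, those of Ccr2 and H2-Ab1 are flattest in mouse 304, and those of Pax7, Myf5, Chodl and Car4 fall in all 3 mice.

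Genes of antigen presentation differed between the limbs by an amount that varied with the mouse. The 10 tested genes of MHC class II, which presents peptides to helper T cells, had a median of -0.13 in mouse 304, 1.35 in mouse 305 and 1.12 in mouse 306. H2-Ab1, a class II beta chain, was the 1 call, where 0.382% of all tested genes rose. It stood at 21.6, 8.46 and 11.5 CPM in CL and 26.1, 21.7 and 27.3 in RL. RL 2 exceeded CL 1 by little, and the log2 fold change was 0.94 ± 0.18 (SE, edgeR adjusted p = 0.0491). It was not called by DESeq2 (adjusted p = 0.451) or without mouse 305 (edgeR adjusted p = 0.234). Without mouse 304, 8 of the 10 rose, where 3.5% of all genes rose. Of 17 genes of MHC class I and the immunoproteasome none passed with 3 pairs and 9 rose without mouse 304, with medians of -0.11, 0.46 and 0.73 in the mice. Class II genes are also expressed by B cells, whose marker Ms4a1 stood at 6.96 CPM in CL 1, and the part of such cells in these values was not tested.

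Macrophage markers were divided in a like way. The 26 tested had medians of -0.0047 in mouse 304, 0.78 in mouse 305 and 0.67 in mouse 306. Of the 26, 2 rose, where 0.382% of all tested genes rose. Summed over the list, CL 1 held 463 CPM against 271 and 304 in the other CL libraries and 328 to 436 in RL. Itgam, the integrin chain CD11b, went from 5.68, 2.92 and 3.71 CPM to 8.53, 5.48 and 8.63, with RL 2 below CL 1 (log2 0.89 ± 0.14, SE, edgeR adjusted p = 0.0213). Lyz1, a lysozyme with a near-identical neighbour in Lyz2, went from 4.16, 2.78 and 2.99 CPM to 6.23, 7.29 and 7.95, with no overlap (log2 1.11 ± 0.17, SE, edgeR adjusted p = 0.0171). Lyz2 itself went from 91.8 to 78.4 CPM in mouse 304 but from 26.7 to 52.4 and from 39.3 to 69.1 in the others (edgeR adjusted p = 0.502). Without mouse 305 the calls of Itgam and Lyz1 were lost (edgeR adjusted p = 0.0942 and 0.107). Without mouse 304, 15 of the 26 rose, where 3.5% of all genes rose.

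Of 16 tested monocyte and chemokine genes 4 rose and 0 fell, where 0.382% of all tested genes rose. Ccr2, the receptor that draws monocytes out of the blood, went from 6.73, 3.31 and 4.46 CPM to 10.7, 11 and 15.2, against 2.71 to 3.54 in CTL mice. All RL libraries were above all CL libraries, and the step was smallest in mouse 304, at 0.66 against 1.72 and 1.76. The fitted log2 difference was 1.36 ± 0.19 (SE, edgeR adjusted p = 0.0121).

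The chemokine genes Ccl9 and Ccl6 rose by 1.01 and 0.86 (edgeR adjusted p = 0.0135 and 0.0354), with steps of 0.58 and 0.36 in mouse 304 and 1.12 to 1.29 in the others. Cxcl9, which attracts T cells, rose in the mice by 1.21, 1.40 and 1.96 (log2 1.56 ± 0.24, SE, edgeR adjusted p = 0.0222). Without mouse 305 these 3 chemokine calls were lost (edgeR adjusted p from 0.0878 to 0.202). Without mouse 304, 11 of the 16 genes rose, where 3.5% of all genes rose.

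Retnla, which encodes a resistin-like protein secreted by alternatively activated macrophages, was unlike these lists in that mouse 304 had the largest step. It went from 4.24, 4.81 and 4.99 CPM to 14.9, 12.8 and 14.1. The libraries within a limb were close, the limbs were far apart, and CTL mice had 3.31 to 7.34 CPM. The fit gave a log2 fold change of 1.57 ± 0.11 (SE, edgeR adjusted p = 0.000101).

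Among the genes that fell, the satellite cell list stood first in number. Of 24 tested members 5 fell and 0 rose, against 0.102% of all genes that fell. In every mouse 16 were below 0, against 14.9% of all genes. The median was -0.35, and the medians of mice 304, 305 and 306 were -0.76, -0.28 and -0.25. Without mouse 304 the list median was -0.25. Summed over the list, CL 1 held 250 CPM against 215 and 224 in the other CL libraries and 198 to 217 in RL. Pax7 (chromosome 4, 139737062 to 139833528, minus strand) went from 1.75 to 0.664 CPM in mouse 304, from 1.11 to 0.440 in mouse 305 and from 1.84 to 0.364 in mouse 306. These are 46 to 85 counts per CL library and 15 to 26 per RL library. All RL libraries were below all CL libraries and below the CTL range of 1.55 to 2.26 CPM, and the log2 fold change was -1.67 ± 0.29 (SE, edgeR adjusted p = 0.0326).

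Myf5, the factor that commits satellite cells to the muscle lineage, went from 0.823, 1.14 and 1.12 CPM to 0.255, 0.343 and 0.267. The fall was even across the mice, at -1.52, -1.59 and -1.89, with a log2 fold change of -1.82 ± 0.30 (SE, edgeR adjusted p = 0.0326). Chodl, a membrane lectin, went from 4.10, 6.28 and 4.94 CPM to 2.22, 3.23 and 2.55. Its differences of -0.87, -0.95 and -0.94 were the most alike of the 5, and its log2 fold change was -0.93 ± 0.13 (SE, edgeR adjusted p = 0.0132).

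Fgfr4, a growth factor receptor, fell by 2.84 on the log2 scale on 3 to 7 counts per RL library (edgeR adjusted p = 0.0299). Its log2 fold change was -2.23 without mouse 304 and -3.56 without mouse 305. Megf10, a receptor with EGF repeats, went from 2.39, 1.96 and 1.44 CPM to 0.587, 1.03 and 0.218, a log2 fold change of -1.75 ± 0.32 (SE, edgeR adjusted p = 0.0428). The limbs did not overlap for either gene. DESeq2 called Fgfr4, Chodl and Megf10 but not Pax7 and Myf5 (adjusted p = 0.0659 and 0.164). Without mouse 305 the calls of Pax7, Myf5 and Chodl were lost (edgeR adjusted p = 0.0942, 0.159 and 0.129), and without mouse 304, 7 genes of the list fell and 1, the surface proteoglycan Sdc3, rose (log2 0.72).

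Genes of later steps did not pass. Of 11 tested genes of myogenic commitment and fusion none rose or fell. Myh3 had differences of -1.75, -0.07 and -1.04 (edgeR adjusted p = 0.0631) and the neonatal myosin gene Myh8 -1.10, -0.16 and -1.32 (edgeR adjusted p = 0.0676). Both were called in the fits without mouse 305 (edgeR adjusted p = 0.00305 and 0.00618) and without mouse 306 (4.87e-09 and 0.0117). Without mouse 304, Myh8 was called as well (log2 -0.84, edgeR adjusted p = 0.00318), while Myh3 was not (log2 -0.62, edgeR adjusted p = 0.1). With no pairing and without CL 1, the fold change of Myh3 was log2 0.77 (edgeR adjusted p = 0.914).

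In the fibres themselves the slow genes had medians of 0.51, 0.32 and 0.18 in mice 304, 305 and 306, and the fast genes 0.16, -0.22 and -0.29, so that both were above 0 in mouse 304. Of 15 tested genes of slow fibres 14 had a positive fold change, and the median was 0.35. In every mouse 10 were above 0, against 13.4% of all genes. Tnnc1, which encodes slow and cardiac troponin C, rose from 6.77 to 11 CPM in mouse 304, from 11.9 to 23.6 in mouse 305 and from 13.1 to 20.3 in mouse 306. The limbs overlapped between mice, since RL 1 lay below CL 2 and CL 3, and RL 2 and RL 3 lay above the CTL range of 11.3 to 19.5 CPM while RL 1 lay below it. Its log2 fold change was 0.78 ± 0.10 (SE, edgeR adjusted p = 0.00903), and it was lost without mouse 305 (edgeR adjusted p = 0.112). Myh7, the slow myosin, had differences of 1.15, 0.76 and 0.21 (edgeR adjusted p = 0.0941).

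Of 16 tested genes of fast fibres none passed, and 14 had a negative fold change with a median of -0.13. Myh4, the myosin of the fastest fibres, went from 29934 to 33625 CPM in mouse 304, from 29577 to 25213 in mouse 305 and from 30471 to 23872 in mouse 306. The limbs overlapped, the direction in mouse 304 was opposite to the others, and the log2 fold change was -0.14 ± 0.24 (SE, edgeR adjusted p = 0.96). Without mouse 304, 6 slow genes rose, among them Myh7 (log2 0.48) and the slow troponins Tnni1 and Tnnt1 (0.69 and 0.41). In the same fit 5 fast genes fell, Tnnt3, Actn3, Mybpc2, Casq1 and Atp2a1, by 0.35 to 0.45.

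Connective tissue genes gave few calls. None of 22 collagen genes passed in edgeR, while DESeq2 called 1 lower. Col1a1, the main fibrillar collagen chain, stood at 702, 240 and 329 CPM in CL and 255, 190 and 196 in RL, with differences of -1.46, -0.34 and -0.75 (log2 -0.85 ± 0.19, SE, edgeR adjusted p = 0.0981). RL was lower in all 3 mice, though RL 1 lay above CL 2, and CTL mice spanned 203 to 352 CPM. Without mouse 304 the log2 fold change of Col1a1 was -0.54 and was called (edgeR adjusted p = 4.07e-05). In that fit 5 collagens fell, Col1a1, Col1a2, Col11a1, Col12a1 and Col24a1, and 2 rose, Col4a1 and Col4a2, the main chains of basement membranes (log2 0.28 and 0.33).

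Tendon cell genes had the second lowest list median, -0.50, with medians of -0.30, -0.58 and -0.40 in the mice. Of 15 tested, 10 were below 0 in every mouse, against 14.9% of all genes. None passed in edgeR, while DESeq2 called 1 lower. Tnmd, a membrane protein of tendon cells, had differences of -0.30, -0.89 and -0.40 (edgeR adjusted p = 0.158). Without mouse 304, 9 of the 15 fell, where 1.56% of all genes fell.

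Timp4, an inhibitor of matrix-degrading metalloproteinases, was the 1 call among 28 matrix remodelling genes, where 0.102% of all tested genes fell. It went from 9.63, 18.9 and 14.9 CPM to 6.23, 11.7 and 9.94, a step of -0.62, -0.69 and -0.58. The step was even while the levels differed between mice, so that RL 2 and RL 3 lay above CL 1 (log2 -0.64 ± 0.10, SE, edgeR adjusted p = 0.0171). Ly6a, the surface antigen Sca-1 of fibro-adipogenic progenitors and of endothelium, rose by 0.64 ± 0.10 (SE, edgeR adjusted p = 0.0226). It was the 1 call among 19 progenitor genes, where 0.382% of all tested genes rose. Without mouse 305 the calls of Timp4 and Ly6a were lost (edgeR adjusted p = 0.192 and 0.155).

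Of the genes outside the lists, Htra4 had the most even fall. It went from 6.34, 6.11 and 6.51 CPM to 3.04, 2.84 and 3.06, and every difference lay between -1.05 and -1.09. The CTL range was 4.43 to 6.54 CPM, and the log2 fold change was -1.09 ± 0.12 (SE, edgeR adjusted p = 0.0033). Gamt, which makes creatine in its last step, went from 5.97, 4.06 and 4.27 CPM to 3.14, 2.35 and 2.23, again without overlap (log2 -0.88 ± 0.14, SE, edgeR adjusted p = 0.0213).

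Sema6a, a membrane semaphorin, and Mtss1l, an actin-binding protein that bends membranes, fell by 0.66 and 0.58 (edgeR adjusted p = 0.0446 and 0.0213). Stab2, a scavenger receptor for hyaluronan, did not pass, with differences of -0.45, -0.67 and -0.57 (edgeR adjusted p = 0.0601). DESeq2 did not call Gamt and Sema6a (adjusted p = 0.0645 and 0.121), and without mouse 305 Gamt, Sema6a and Mtss1l were lost (edgeR adjusted p = 0.101, 0.094 and 0.202).

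Mir6236, annotated as a miRNA gene, had the largest fall among called genes of a mean log2 CPM of 1 or more, with a wide spread. CL libraries held 2.96, 7.11 and 31.1 CPM and RL libraries 1.58, 2.30 and 2.50, while CTL libraries ranged from 3.40 to 59.4. Its fitted fold change was log2 -2.24 ± 0.38 (SE, edgeR adjusted p = 0.0326), and DESeq2 did not call it (adjusted p = 0.483). Without mouse 306, whose CL library held the 31.1 CPM, the log2 fold change was -1.29. Whether its counts come from a miRNA or from ribosomal RNA was not tested.

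Over 41 lists, 13 held a gene called by edgeR, each in 1 direction only, and 28 held none. In those 28 the list medians ran from -0.62, for neutrophil and mast cell markers, to 0.38, for proliferation. The circadian clock (19 tested, median -0.042), the neuromuscular junction (19, -0.11), Schwann cells (18, -0.17) and calcium handling (18, -0.072) were among them. DESeq2 called 1 gene lower in each of the collagen, tendon and calcium handling lists, where edgeR called none. It called 2 matrix remodelling genes, 2 slow fibre genes and 3 cyclins or inhibitors, where edgeR called 1, 1 and 2. Adipocyte and lipogenesis genes had medians of -1.01 in mouse 304, 0.06 in mouse 305 and -0.05 in mouse 306, and no gene passed. The medians of the 3 mice all lay above 0 in 7 of the 41 lists, among them the interferon, p53 and slow fibre lists, and all below 0 in 8, among them the satellite cell, tendon and collagen lists.

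**Figure D5:**
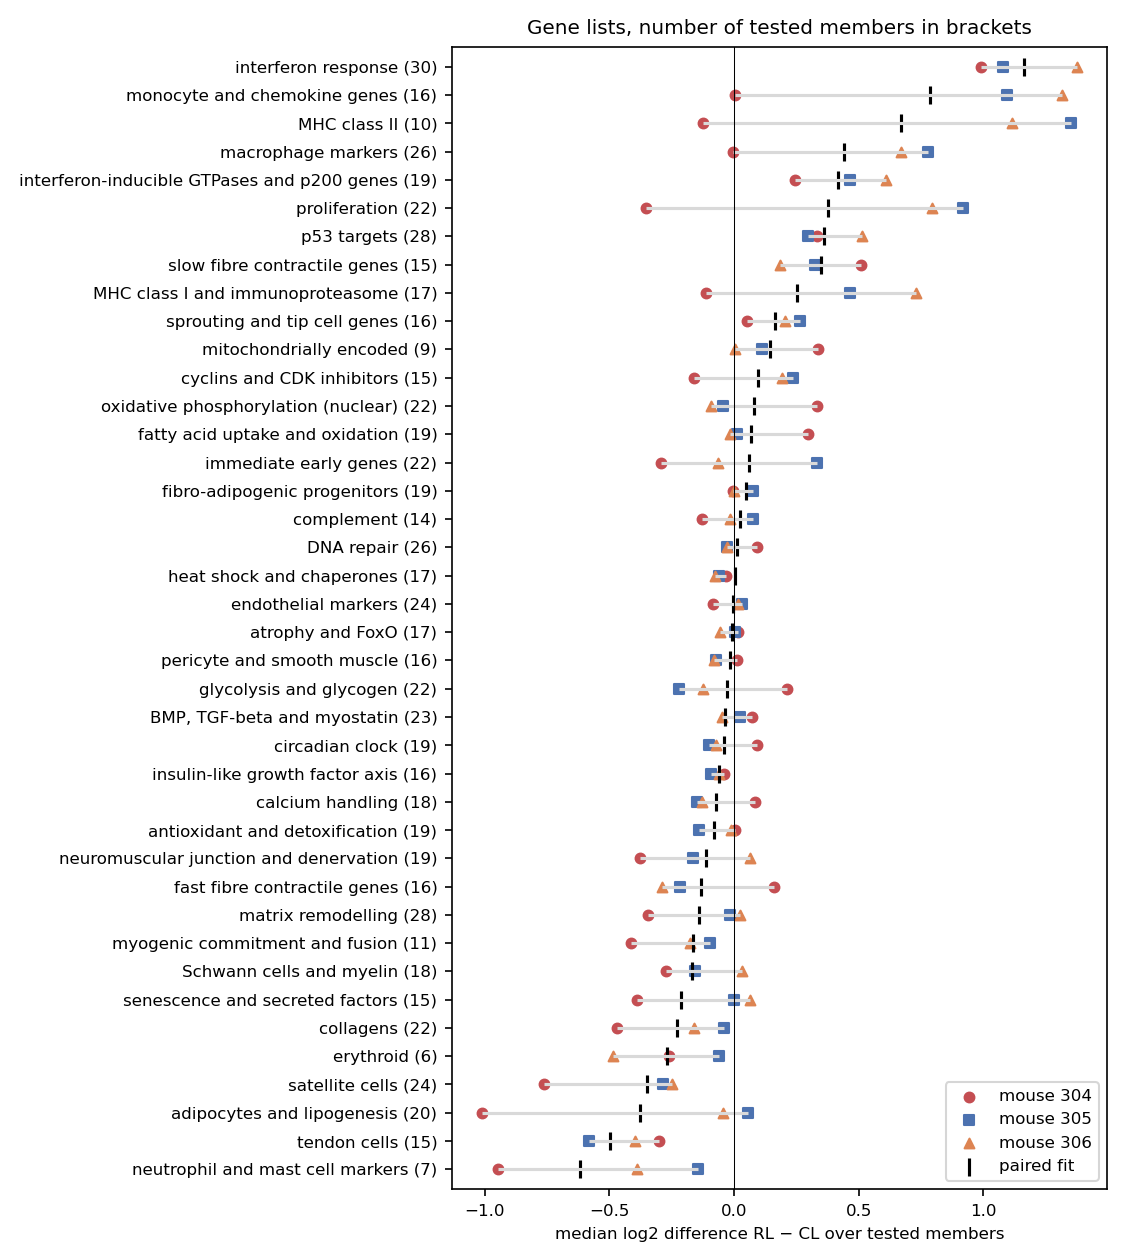
Median log2 difference RL minus CL over the tested members of each gene list (horizontal axis) in each mouse, with the median of the paired fit as a black bar and the number of tested members in brackets. The interferon response lies near 1 or above in all 3 mice, while proliferation and MHC class II are below 0 in mouse 304 and near 1 in the others.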

How the data were processed

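Total RNA of mouse gastrocnemius was made into stranded libraries, per the labels' protocols. The values tested are the deposited counts, raw and per gene. The submitters' processing notes name the genome build GRCm38.p5 and DESeq2. No source used here states the aligner, counting rules or strand setting. From the authors' deposited table for these limbs, log2 fold changes gave directions and adjusted p-values gave calls.

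Of 49568 rows, 26 had names turned into dates and 21023 had no count. edgeR 4.0.16 (R 4.3.3) kept 14671 genes by its filter on the 6 libraries, scaled all 9 libraries by the trimmed mean of M values, and tested RL against CL with mouse as a block (2 residual degrees of freedom). The SE is the absolute log2 fold change over the square root of F. Differences per mouse use log2 CPM with a prior count of 2. Same-numbered limbs come from the same mouse, and their deviations from the group means correlated at 0.311, 0.453 and 0.065 in mice 304, 305 and 306. Limbs of different mice ran from -0.383 to 0.111. The highest of these, RL of mouse 306 with CL of mouse 304, was above the matched value of mouse 306. Replicates within a limb are separate mice.

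Lists of genes (42, of which 1 only checked sex) and the members described were chosen with earlier results of these data known. Genes named by rule were the 12 most raised and 12 most lowered called genes whose log2 CPM averaged 1 or more, with a regular symbol and the same sign in all 3 pairs. Where fewer than 8 passed, the smallest p-values filled up to 8. All called list members, up to 4 members per list by p, Pax7, Cdkn1a, Myh4 and Col1a1 were added, and other names were chosen after their values were seen. Alternatives were limma-voom (limma 3.58.1), DESeq2 1.42.0 (with the same block), other scaling, no filter, no block and each mouse left out. Coordinates are 1-based from GENCODE vM21, and promoters are from RefSeq, matched by symbol for 50 of the 71 called genes.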

Additional observations from a re-analysis of the deposited data

How the results depend on the processing

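The 71 calls (56 higher, 15 lower) depended on treating the limbs as pairs. With no replicate block, 4 genes were called (3 higher, 1 lower), and 11 (8 and 3) when the CTL libraries were added to that fit. All of these were among the 71. With no block and without CL 1 there were 76 calls, 68 higher and 8 lower, of which 32 were shared. With the replicate block, DESeq2 called 61 (47 shared), limma-voom 57 (54 shared), DESeq2's size factors in place of the trimmed mean of M values 64 (all shared) and leaving out mitochondrial genes 65 (all shared). Without the filter on low counts 482 genes were called (257 higher, 225 lower), including all 71, and the cause was not tested.

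Leaving out a mouse gave 34 to 743 calls, 24 to 514 higher and 10 to 229 lower. Without mouse 304 there were 743, including all 71. Of the 458 further genes that were higher, 243 were below 0 in mouse 304, and of the 214 lower, 71 were above 0 there. Among the 10050 genes whose log2 CPM averaged at least 1, 42.6% were below 0 in that mouse. Without mouse 305 there were 34, of which 25 were shared, and without mouse 306 there were 190, of which 65 were shared. These fits hold 2 pairs and lean on the spread shared across genes, so their small p-values rest on little replication. Of the 47 called genes named by the rule, 20 were still called without mouse 305, 45 without mouse 306, 33 by DESeq2 and 39 by limma-voom. None of these 47 changed direction under an alternative run. All called genes had the same sign in all 3 mice, so a reversal was hardly possible and its absence is no separate support. Of the 127 named genes that were not called, 12 changed direction, among them Myh3 (log2 0.77) and Myog (0.06) with no replicate block and without CL 1. The share of genes with the same direction in all 3 mice moved only from 28.3% to between 24.9% and 28.5%. Genes at a few counts per library, such as Fgfr4 and Car4, are limited by depth.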

Other observations

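The genes described here were chosen after their values were seen. The largest fold changes of the comparison belonged to Gm10800 and Gm10801, neighbouring predicted genes on chromosome 2 (98666547 to 98667301, minus strand, and 98662237 to 98664083, plus strand). Gm10800 stood at 0.103, 0.0725 and 0.0267 CPM in CL and at 2.96, 2.79 and 2.50 CPM in RL of mice 304, 305 and 306. CTL libraries held 0 to 0.119 CPM, so the 3 RL libraries were alone in their level. Summed over the mice, 333 counts in RL stood against 9 in CL, a ratio scaled by library size of 38.9 with an exact 95% interval of 20.2 to 85.8 for counting error only. Gm10801 had 118 counts against 5, a ratio of 24.8 (10.3 to 77.8). Their edgeR adjusted p-values were 5.1e-05 and 0.00361. Their annotated transcripts share 162 stretches of 25 bases, 32.4% of those in Gm10800 and 35.1% of those in Gm10801, so reads cannot be told apart with certainty between them. Whether the counts come from these places or from similar sequence elsewhere in the genome was not tested.

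Ddias, a gene known to be induced by DNA damage and to restrain apoptosis, rose from 0.309, 0.0483 and 0.0801 CPM to 0.893, 0.734 and 0.630 (edgeR adjusted p = 0.0491), and CTL libraries held 0 to 0.0754 CPM. Ephx1, a microsomal epoxide hydrolase, rose from 7.20, 9.43 and 8.04 CPM to 13.8, 13.8 and 15.2, with no overlap and a log2 fold change of 0.80 ± 0.11 (SE, edgeR adjusted p = 0.0108). Mmrn2, a matrix protein of blood vessels, rose evenly by 0.89, 0.92 and 0.73 in the mice (edgeR adjusted p = 0.00361).

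Macrophage genes outside the lists included Mgl2, a lectin of alternatively activated macrophages, which rose by 0.67 (edgeR adjusted p = 0.0488), and Fcrls, an Fc receptor-like gene of resident macrophages, which rose by 1.17 (edgeR adjusted p = 0.00661). Both were higher in RL in all 3 mice.

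In the authors' deposited table for these limbs, 49 genes had an adjusted p under 0.05, 34 higher and 15 lower in RL. Of these, 38 were also called with the mouse as a block. The authors' design for that table is not given in the sources used here.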
